A study of Mus musculus with 6 samples.

Results

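Immunoglobulin transcripts and the genes of antibody-secreting cells were followed in lineage negative mouse bone marrow, that is, marrow from which cells bearing markers of mature blood cells have been removed, on 6 Affymetrix mouse expression arrays. The 10 genes comprised 4 immunoglobulin genes (Igha, Ighm, Iglv1 and Igkv9-120) and 6 secretory cell genes (Jchain, Mzb1, Xbp1, Sdc1, Prdm1 and Irf4). All probe sets whose symbol in the platform annotation included one of these names were taken, which gave 10 of 18193 gene symbols and 38 of the 45037 probe sets that are not array controls, 25 for immunoglobulins and 13 for secretory cell genes. The genes were chosen with their strain differences already known, so every strain difference of these 38 probe sets is given as a description, without a p-value. Where those that passed the test threshold are counted or starred below, nothing is read from it.

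The strains were C57B/L6, with the genetic background labelled C57B/L6, and B.D(Chr5), with the background labelled B.D and a name that points to chromosome 5. Each strain had 3 arrays, labelled as biological replicates, of marrow RNA from untreated females aged 6 to 16 weeks. The labels do not state whether a replicate was a single mouse or a pool, which antibodies removed the lineage cells, or which segments B.D(Chr5) carries. Values are MAS5 signals, a probe set intensity on a linear scale, and differences are given as log2(signal + 16) in B.D(Chr5) minus C57B/L6, a scale that understates changes of dim probe sets. Tests were run on the brighter 50% of probe sets, 31 of the 38 among them.

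An antibody is built of heavy and light chains. Each chain joins a variable segment, chosen by DNA rearrangement in each B cell, to a constant region: Ighm encodes the constant region of IgM heavy chains and Igha that of IgA. Light chains are of the kappa or the lambda type, with Igkv9-120 a variable segment of the former and Iglv1 one of the latter. Plasma cells are the final B lineage stage, and many settle in bone marrow. They form under the transcription factors IRF4 and BLIMP-1 (encoded by Prdm1), while XBP1 expands the endoplasmic reticulum in which antibody is folded. The joining chain encoded by Jchain links IgM and IgA into polymers, MZB1 is an endoplasmic reticulum protein that assists antibody assembly, and syndecan-1, encoded by Sdc1 and known as CD138, is the usual surface marker of plasma cells.

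Of the 6 secretory cell genes, 5 had an entry in the RefSeq promoter table (GRCm38.p6): Jchain, Prdm1, Xbp1, Sdc1 and Irf4. The 250 bases before the transcription start are shown for Xbp1 (chr11:5520391-5520640, plus strand) and Jchain (chr5:88527898-88528147, minus strand), since these are the brightest secretory cell genes and the B.D(Chr5) arrays rank them in different orders below. Jchain is also the only one of the 10 genes on chromosome 5. Capitals mark ACGT, the core that XBP1 binds, and CAGGTG, an E-box of the B lineage E proteins.
Xbp1: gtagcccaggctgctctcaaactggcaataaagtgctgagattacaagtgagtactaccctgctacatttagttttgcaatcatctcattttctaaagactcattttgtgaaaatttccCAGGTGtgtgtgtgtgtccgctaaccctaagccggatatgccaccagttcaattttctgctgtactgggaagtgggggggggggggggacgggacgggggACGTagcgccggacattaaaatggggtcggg
Jchain: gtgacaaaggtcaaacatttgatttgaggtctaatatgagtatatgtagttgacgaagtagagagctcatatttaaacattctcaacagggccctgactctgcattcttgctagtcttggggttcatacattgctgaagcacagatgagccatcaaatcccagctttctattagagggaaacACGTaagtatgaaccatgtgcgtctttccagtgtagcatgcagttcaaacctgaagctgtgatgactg
On both strands, ACGT stood in 26.9% and CAGGTG in 17.2% of all 32851 promoters of this length. ACGT was found in Xbp1 and Jchain, CAGGTG in Xbp1 and Prdm1. The octamer ATTTGCAT, a motif of immunoglobulin promoters found in 1.6% of promoters, was in 0 of the 5 windows. These matches are descriptions of the letters in the window.

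The arrays were scaled alike, and their median signal lay between 65.0 and 79.5. The background level of an array, read from its 27 bacterial controls (95th percentile), was 21.8 to 24.4 in C57B/L6. It was 23.4, 31.8 and 38.0 on the B.D(Chr5) arrays. Progenitor markers were bright on every array, with Kit between 4060.0 and 5552, Cd34 between 3099.5 and 4258, and Mpo, the granule enzyme of early myeloid cells, between 19744 and 26239. Mpo was higher in all B.D(Chr5) arrays, by 0.23 on the log2 scale, and Meis1, a transcription factor gene of early progenitors, was lower, at 946 to 1264 against 749 to 892 (log2 difference -0.41), with limma adjusted p = 0.846 and 0.746. The T cell marker Cd4 was not above background on any array and Cd3e lay between 98.7 and 205. The B cell surface gene Ms4a1 lay between 164 and 304 on 5 arrays and at 1113 on B.D(Chr5) replicate 3. That array stood apart in B lineage genes, as described further below, so differences that turn on it are given without it too, near-background probe sets aside.

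The largest strain differences of the 38, at 2.00, 1.79 and 1.77 on the log2 scale, were those of light chain probe sets. An Ighm probe set, 1425385_a_at, followed at 1.61. The main Iglv1 probe set, 1430523_s_at, read 1979, 2325 and 2506 in C57B/L6 and 7911, 8856 and 6686 in B.D(Chr5). All B.D(Chr5) arrays were thus well above all C57B/L6 arrays. The means were 2269.9 ± 268 and 7818 ± 1088 (SD, n = 3 each), a 3.42-fold difference, or 1.77 with an SE of 0.12 on the log2 scale. Probe set 1424931_s_at, shared between Iglv1 and Iglc1, the lambda constant region next to it on chromosome 16, read 1339, 1855 and 2464 in C57B/L6 and 7520.2, 8563 and 6233 in B.D(Chr5). Its log2 difference was 2.00 with an SE of 0.20, the largest of the 38. The other Iglv1 probe sets were dimmer and their groups overlapped. Probe set 1447918_x_at lay between 210.3 and 365 and differed by 0.24 (95% interval -0.16 to 0.64), and 1427292_at lay between 32.8 and 153 and differed by 0.56 (-0.30 to 1.43), or 0.26 without B.D(Chr5) replicate 3.

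For the kappa variable segment Igkv9-120, on chromosome 6, probe set 1460423_x_at read 1274, 1517 and 1029 in C57B/L6 and 5098, 5363 and 3084 in B.D(Chr5). The lowest B.D(Chr5) array was far above the highest C57B/L6 array. The log2 difference was 1.79 with an SE of 0.21, a 3.46-fold difference between means of 1273 ± 244 and 4515 ± 1247 (SD, n = 3 each). A dimmer probe set, 1452536_s_at, read 149.7, 141 and 208 against 503, 493 and 340.2, with a log2 difference of 1.34 and an SE of 0.20. The third, 1427750_at, was above the controls on 2 of 6 arrays only and has no usable difference. The ending _x_at of an Affymetrix name marks probes that can also pair with other transcripts, and _s_at marks probes shared by several. Variable segments resemble their relatives closely, so these values cannot be assigned to a single segment with certainty.

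The kappa constant region showed much smaller differences than these light chain segments. Its 3 probe sets each carry 5 symbols, Igkc and Igkj1 with 3 variable segments. The brightest, 1427455_x_at, read 23622, 25053 and 24681 in C57B/L6 and 28542, 30647 and 24539 in B.D(Chr5), so the groups overlapped. The log2 differences of the 3 probe sets were 0.13, 0.14 and 0.19. These are among the brightest probe sets of the arrays, whose highest signals reached 31845 to 38835. The part of such brightness in the size of these differences was not tested. In bulk RNA, more cells of a type and more RNA per cell cannot be told apart, and this holds for every level given here.

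The heavy chain genes, both on chromosome 12, gave unlike values. Igha was higher in B.D(Chr5) on all 3 of its probe sets. Probe set 1429381_x_at read 12114, 10715 and 10685 in C57B/L6 and 22095, 25215 and 16099 in B.D(Chr5), with no overlap and a log2 difference of 0.90 (SE 0.14). Probe set 1425763_x_at read 15812, 14000.2 and 13979.7 against 24964, 29608 and 18406, also without overlap, and differed by 0.71 (SE 0.15). Probe set 1421653_a_at read 15316, 14542 and 14290.0 against 20857, 25194 and 15189. There the lowest B.D(Chr5) array lay just below the highest C57B/L6 array, and the difference was 0.44 (SE 0.15). B.D(Chr5) replicate 3 was the lowest Igha array of its strain on all 3 probe sets, and without it the differences were 1.08, 0.90 and 0.64 in the same order.

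For Ighm 15 probe sets were found, of which 4 were shared with variable segments or Ighg3. The 7 that averaged over 1000 in C57B/L6 divided into 6 with slightly lower values in B.D(Chr5) and 1 with higher values. The 6 had log2 differences between -0.27 and -0.11, and all 6 were also negative under quantile normalization and under centring on the median. Without B.D(Chr5) replicate 3, however, 3 of the 6 turned slightly positive, 1427870_x_at to 0.04, 1425324_x_at to 0.02 and 1425247_a_at to 0.0028, and the other 3 lay between -0.16 and -0.03. The brightest, 1427351_s_at, read 21378, 20891 and 20064 in C57B/L6 and 20014, 20740.0 and 16542 in B.D(Chr5), where the groups overlapped. Its difference of -0.13 had a 95% interval from -0.33 to 0.07. In 1427329_a_at, with 13726, 16098 and 14371 against 13658, 12751 and 12178, all B.D(Chr5) arrays were lower, and the log2 difference was -0.19 with an SE of 0.08.

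The other 4 of the 6 had medium signals and the same highest and lowest arrays. Probe set 1427870_x_at read 4293, 3830.4 and 3916 in C57B/L6 against 4844, 3522 and 3029, and 1425247_a_at read 4194, 3761 and 4044 against 4799, 3339 and 2871. In each, B.D(Chr5) replicate 1 was the highest and replicate 3 the lowest of all 6 arrays, which the strain difference averages out. The same array order held at the extremes of 1425324_x_at, from 2453 to 1125, and of 1427756_x_at, from 2424 to 1413. Their log2 differences were both -0.27, with SEs of 0.23 and 0.17.

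The exception among the bright Ighm probe sets was 1425385_a_at. It read 1041, 3901 and 3091 in C57B/L6 and 12274, 4224 and 7040.3 in B.D(Chr5). The groups did not overlap, but the arrays of each strain spread widely, and the log2 difference of 1.61 had an SE of 0.48. Another Ighm probe set, 1452535_at, was dimmer and also higher in B.D(Chr5), with 239, 312 and 240.5 against 414, 572 and 436 and a log2 difference of 0.81 (SE 0.17). The 4 shared probe sets lay between 33.7 and 720.1, and their groups overlapped in all 4. The remaining 3, 1426196_at, 1427869_at and 1451949_at, were below the signal filter, and 1427869_at was at the control level on all 6 arrays. The platform annotation gives 1 symbol to probe sets that behaved as differently as these, and which part of a rearranged heavy chain each one reads was not tested.

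**Figure D1:**
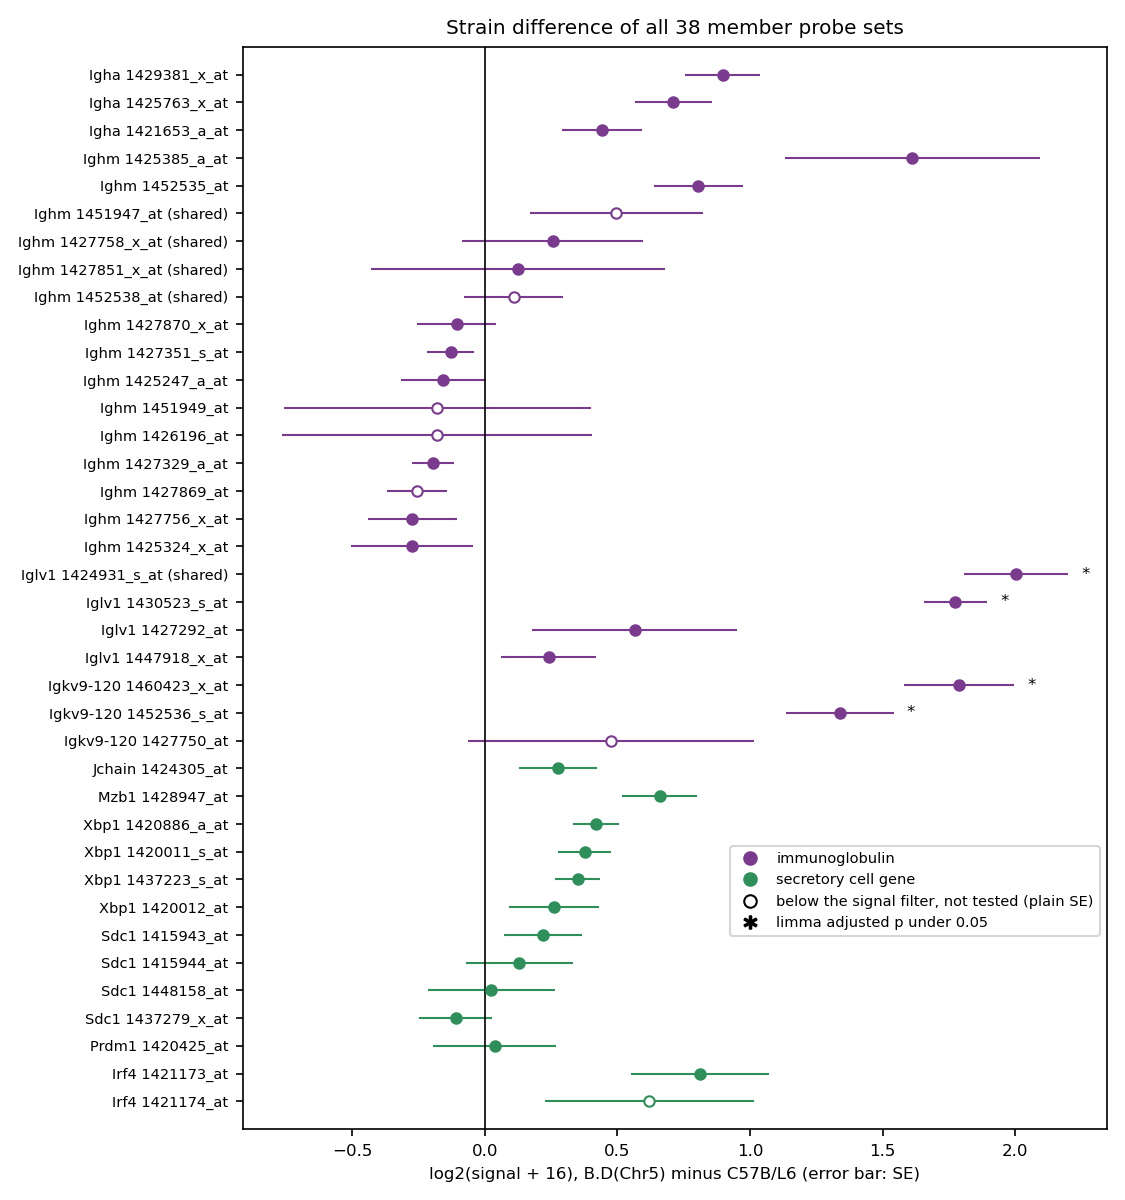
Strain difference of all 38 probe sets on the log2(signal + 16) scale, B.D(Chr5) minus C57B/L6, with the SE as error bar (limma's where tested, a plain SE otherwise), grouped by gene; open circles were below the signal filter, and stars mark an adjusted limma p under 0.05. The 4 stars belong to Iglv1 and Igkv9-120, with differences between 1.34 and 2.00, whereas the secretory cell genes lie between -0.11 and 0.81.

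Among the secretory cell genes, Jchain gave 1 bright probe set with overlapping groups. It read 12224, 11652 and 11622 in C57B/L6 and 14859, 17950.3 and 11022 in B.D(Chr5). B.D(Chr5) replicate 3 was the lowest of all 6 arrays and replicate 2 the highest. The log2 difference was 0.28, with a 95% interval from -0.05 to 0.60. Leaving out B.D(Chr5) replicate 3 raised it to 0.46, and leaving out replicate 2 lowered it to 0.11.

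Mzb1, on chromosome 18, read 684, 713 and 716 in C57B/L6 and 1211, 892 and 1302 in B.D(Chr5). The groups did not overlap, and the C57B/L6 arrays lay close together while those of B.D(Chr5) spread. The log2 difference was 0.66 with an SE of 0.14.

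Xbp1, on chromosome 11, was higher in B.D(Chr5) on all 4 of its probe sets, with differences between 0.26 and 0.42, and 3 of the 4 did not overlap. Its brightest, 1437223_s_at, read 7034, 7069 and 6728 in C57B/L6 and 9723, 7912 and 9022 in B.D(Chr5). The difference of 0.35 (SE 0.08) corresponds to 1.27-fold. Probe set 1420886_a_at read 5486, 5798 and 5475 against 8236, 6674 and 7597, a difference of 0.42 (SE 0.09). Probe set 1420011_s_at read 1711, 1743 and 1683 against 2368, 1938 and 2413, a difference of 0.38 (SE 0.10). The dimmest, 1420012_at, read 177, 210.3 and 223 against 264, 206 and 273 and overlapped. In all 4, replicate 2 was the lowest B.D(Chr5) array. The spliced form of Xbp1 mRNA, which encodes the active factor, was not analysed apart from the unspliced one here.

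The 3 remaining genes were dimmer. Irf4, on chromosome 13, read 96.9, 96.4 and 115 in C57B/L6 and 160.3, 145 and 299 in B.D(Chr5) on probe set 1421173_at. The groups did not overlap, and replicate 3 of B.D(Chr5) lay far above the other arrays. The log2 difference of 0.81 (SE 0.26) was 0.51 without that array. The second Irf4 probe set, 1421174_at, lay between 31.3 and 114 with overlapping groups and was again highest on B.D(Chr5) replicate 3.

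Sdc1, on chromosome 12, had 4 probe sets with signals between 112 and 549, and the groups overlapped in all 4. Their log2 differences ran from -0.11 to 0.22. Probe set 1415943_at read 378, 416 and 519 in C57B/L6 and 527, 452 and 549 in B.D(Chr5), a difference of 0.22 with a 95% interval from -0.11 to 0.55. Probe set 1437279_x_at, of similar brightness, read 453, 476 and 527 against 528, 411 and 412 and differed by -0.11 (-0.42 to 0.20), and the 2 dimmer ones differed by 0.13 and 0.02. Without B.D(Chr5) replicate 3 the last of these, 1448158_at, was at 0.25 and 1437279_x_at at -0.05. The probe sets of this gene thus gave no common direction. Of the 4, 3 were positive with the deposited scaling and 2 after quantile normalization.

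Prdm1, on chromosome 10, read 60.6, 65.9 and 81.4 in C57B/L6 and 84.7, 62.4 and 67.8 in B.D(Chr5). These overlapped almost entirely. The log2 difference of 0.04 had a 95% interval from -0.48 to 0.56, which leaves room for a change of either sign.

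**Figure D2:**
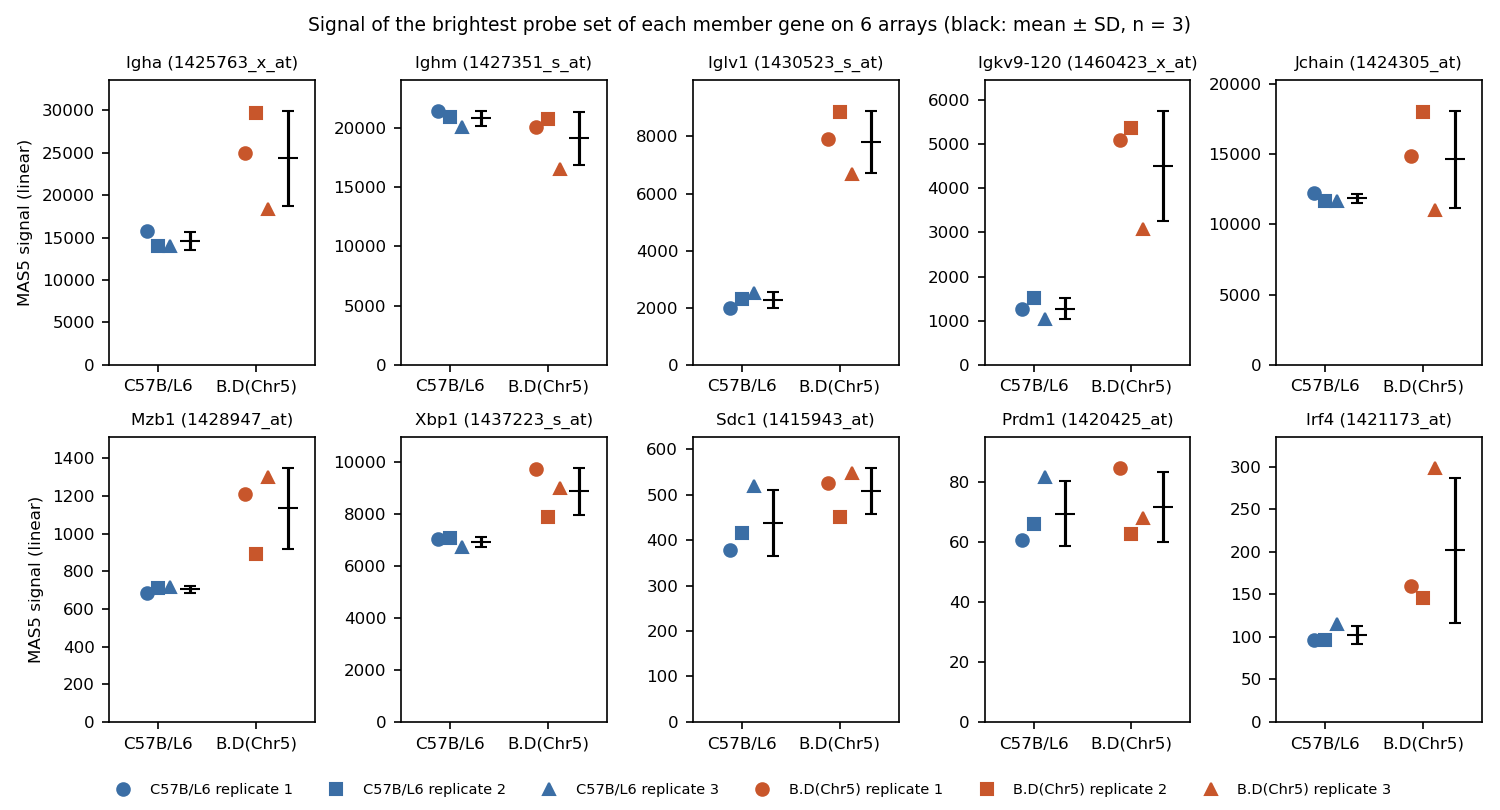
MAS5 signal (linear axis from 0) of the brightest single-symbol probe set of each of the 10 genes on the 3 C57B/L6 arrays (blue) and the 3 B.D(Chr5) arrays (orange), with the mean and SD of each strain in black. Iglv1 and Igkv9-120 separate widely, with 6686 against 2506 and 3084 against 1517 at the nearest arrays, while Ighm, Jchain, Sdc1 and Prdm1 overlap.

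Counted over all 38 probe sets, the 3 B.D(Chr5) arrays lay above the 3 C57B/L6 arrays in 13 and below them in 2, against 4.71% and 4.95% of all 45037 probe sets. These 13 were 8 of 25 immunoglobulin and 5 of 13 secretory cell probe sets. The adjusted limma threshold of 0.05 was passed by 4 of the 31 that were tested, against 0.182% of all 22518 tested probe sets in either direction and 0.0977% in the direction of higher values. Those 4 were the bright Iglv1 and Igkv9-120 probe sets, all higher in B.D(Chr5). Since the genes were chosen for this contrast, nothing is read from these counts. The count dropped to 2 when C57B/L6 replicate 3 or B.D(Chr5) replicate 1 was omitted, and reached 7 when B.D(Chr5) replicate 3 was, with the 3 Igha probe sets added. Without B.D(Chr5) replicate 2 it was 5, among them the secretory cell probe sets of Mzb1 and of Xbp1 (1420886_a_at).

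Counted by probe set, immunoglobulin and secretory cell genes had similar medians but very different spreads. The median log2 difference was 0.26 over the 25 immunoglobulin probe sets, with a range from -0.27 to 2.00, and 0.28 over the 13 secretory ones, with a range from -0.11 to 0.81. Over all 45037 probe sets the median was 0.01. Ighm weighs most in the immunoglobulin median, as it gave 15 of the 25 probe sets, with a median of -0.13. By the brightest probe set of each gene, the log2 differences were 0.71 for Igha, -0.13 for Ighm, 1.77 for Iglv1 and 1.79 for Igkv9-120. Those of the secretory cell genes lay between 0.04 (Prdm1) and 0.81 (Irf4). The immunoglobulin median also depended on single arrays and dim probe sets. It was 0.66 without C57B/L6 replicate 2, 0.17 without C57B/L6 replicate 1 and 0.44 over the 21 probe sets above the controls on all 6 arrays.

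The arrays within B.D(Chr5) did not rank the genes alike. For the brightest probe set of each gene, B.D(Chr5) replicate 2 was the highest and replicate 3 the lowest B.D(Chr5) array for all 4 immunoglobulin genes and for Jchain. For the other 5 secretory cell genes, replicate 2 was the lowest of the strain in all 5. Of these 5, replicate 3 was the highest for Mzb1, Sdc1 and Irf4, and replicate 1 for Xbp1 and Prdm1. Thus Igha (1425763_x_at) lay 0.67 above its 6-array mean on replicate 2 and at -0.02 on replicate 3, on the log2 scale. Mzb1 lay 0.01 above its mean on replicate 2 and 0.54 above it on replicate 3.

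**Figure D3:**
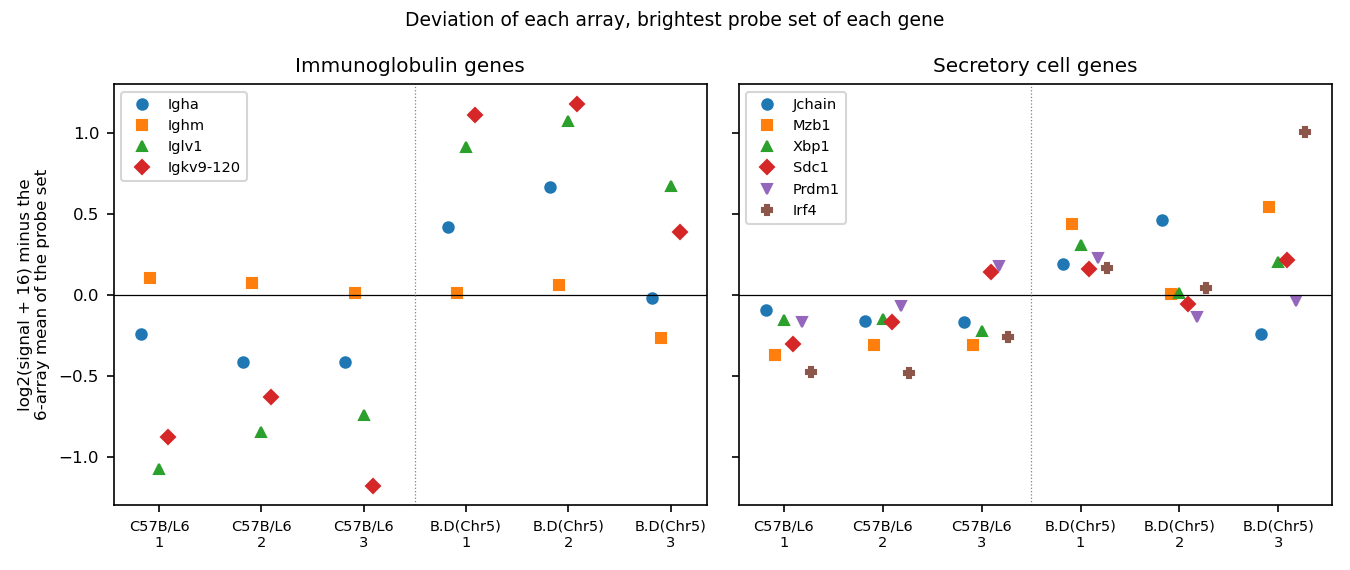
Deviation of the arrays from their common mean on the log2(signal + 16) scale, 1 probe set per gene (its brightest), with immunoglobulin genes on the left and secretory cell genes on the right; the dotted line parts the strains. On B.D(Chr5) replicate 2 the immunoglobulin genes and Jchain are at their highest within the strain and the other 5 secretory cell genes at their lowest.

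Over all probe sets above the controls on all 6 arrays the same order held less uniformly. B.D(Chr5) replicate 3 was the lowest array of its strain for 17 of 21 immunoglobulin probe sets and for 2 of 13 secretory ones. Replicate 2 was the lowest for 3 and 11. As the highest array, replicates 1 and 2 were nearly level among the immunoglobulin probe sets, with 9 and 10 of 21, and replicate 3 led with 7 of 13 among the secretory ones. Probe sets of a gene share transcripts, and those of similar immunoglobulin genes can share probes, so these counts are not independent. Replicate 3 also had the highest control level of the 6 arrays, 38.0, whose part in this order was not tested.

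In C57B/L6 the secretory cell genes hardly varied between arrays where they were bright. From the lowest to the highest C57B/L6 array, the range was 0.06 for Mzb1 and 0.07 for Xbp1 and for Jchain on the log2 scale. The same ranges across the B.D(Chr5) arrays were 0.54, 0.30 and 0.70. For Igha the C57B/L6 range was 0.18 and the B.D(Chr5) range 0.69, and for Iglv1 they were 0.34 and 0.40.

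The B lineage genes were examined beside these values, as B cells also express immunoglobulin and several of the secretory cell genes. Of 15 measured B cell identity genes, 11 were highest on B.D(Chr5) replicate 3. The same held for 6 of 9 early B cell genes. That array also had the highest median signal of the 6, 79.5, and the share of all probe sets highest on it was not determined. Ms4a1, which encodes the B cell surface protein CD20, read 164, 206 and 261 in C57B/L6 and 304, 224 and 1113 in B.D(Chr5). Rag1, a subunit of the recombinase that joins variable segments, read 471, 484 and 679.7 against 458, 463 and 1338, and the B cell transcription factor gene Ebf1 read 129, 162 and 153 against 120.4, 120.0 and 349. In all 3 genes only replicate 3 of B.D(Chr5) stood out. The 3 early B cell genes with negative log2 differences were highest on a C57B/L6 array instead. They were Dntt (-0.21), Il7r (-0.25) and Erg (-0.22). Pax5, the factor that holds B cell identity, was dim and untested on its brighter probe set, with 39.6, 39.4 and 37.1 against 40.6, 65.3 and 65.2.

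**Figure D4:**
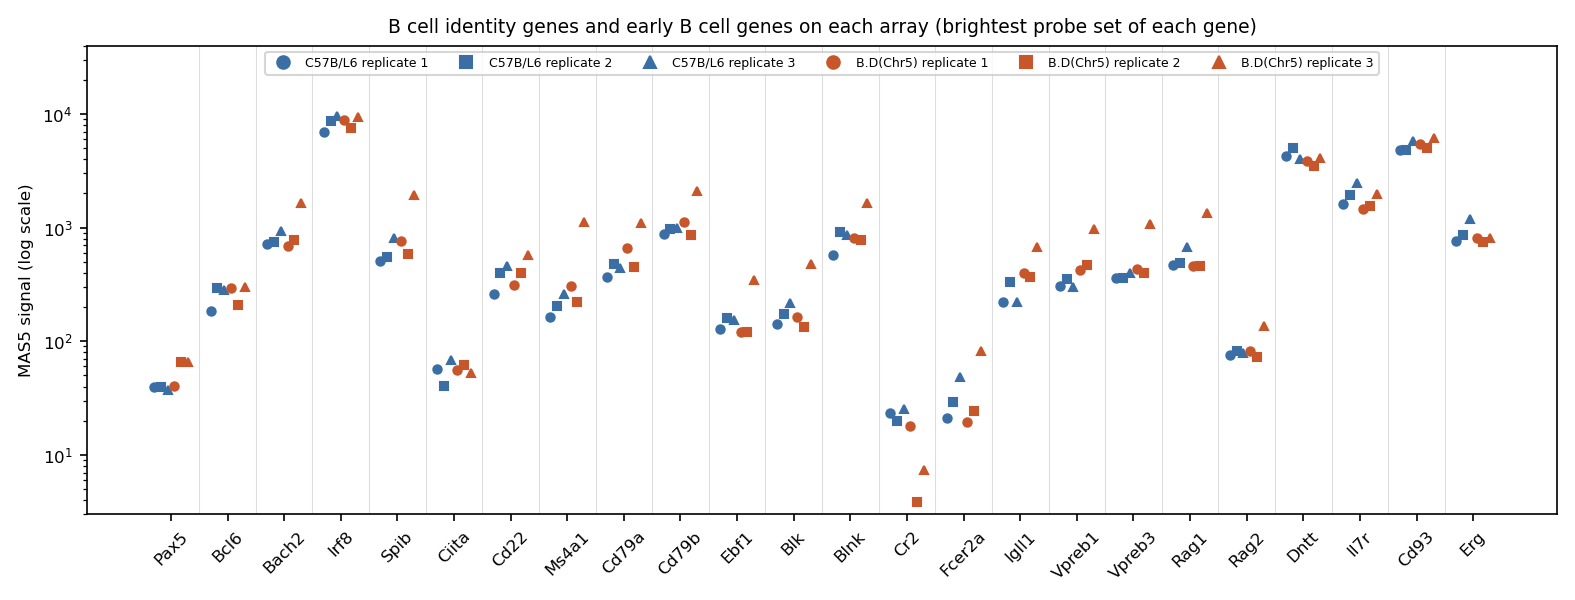
MAS5 signal (log axis) of 24 B cell identity and early B cell genes on each of the 6 arrays, using the brightest probe set of each gene. B.D(Chr5) replicate 3 (orange triangles) is the highest array for 17 of the 24 genes, among them Ms4a1 at 1113 and Rag1 at 1338.

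The summed signal of the 15 B cell identity genes was 10956.5 to 15176 in C57B/L6, and it was 14255, 12178 and 20856 on the B.D(Chr5) arrays. For the 9 early B cell genes it was 12912 to 15098 in C57B/L6, then 13348, 12510.5 and 17267. A few bright genes carry these sums, above all Irf8, with 6892 to 9563 in C57B/L6. Counted by gene, B.D(Chr5) replicate 1 lay above all C57B/L6 arrays for 9 of the 24 genes and below them for 7, replicate 2 for 4 and 9, and replicate 3 for 18 and 1. Without replicate 3 the median log2 difference of the B cell identity genes went from 0.25 to 0.01, with 8 of 15 positive, and that of the early B cell genes from 0.21 to -0.02, with 4 of 9 positive. Of these 24 genes, 0 passed limma after adjustment, where 0.158% of all tested genes did. An unadjusted p under 0.05, found for 5.19% of all tested genes, was seen for 3 of the 20 tested, all higher in B.D(Chr5): Cd79a, a signalling chain of the B cell receptor, and Igll1 and Vpreb1, the surrogate light chain genes. Vpreb1 read 308, 354 and 303 against 426, 467 and 974, and Igll1 read 221, 331 and 224 against 399.7, 364 and 676, without overlap in either. Without replicate 3 the log2 difference went from 0.82 to 0.46 for Vpreb1, from 0.68 to 0.35 for Cd79a and from 0.99 to 0.31 for Ms4a1. Cr2, a complement receptor of mature B cells, was near the control level in C57B/L6 and not above it on any B.D(Chr5) array. In C57B/L6 it read 23.6, 20.0 and 25.2 against controls of 22.8, 21.8 and 24.4. B.D(Chr5) replicate 3 was the highest array for Irf4 and Mzb1 as well, and the part of B lineage cells in those values was not tested.

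The wider immunoglobulin loci were covered by 31 further probe sets without any of the 10 genes. None passed limma after adjustment, and 4 of the 19 tested had an unadjusted p under 0.05, all higher in B.D(Chr5). Over all tested probe sets 4.75% had such a p. The 3 of smallest p were Igkv4-68 (1427857_x_at), Igkv15-103 (1427837_at) and a probe set shared by Igkv6-14, Igkv6-23 and Igkv8-19 (1427577_x_at). Igkv4-68 read 223, 154 and 209.8 in C57B/L6 and 409.5, 487 and 191 in B.D(Chr5), and Igkv15-103 read 928, 519 and 542 against 1467, 861 and 784, so the groups overlapped in each. A brighter probe set shared by Igkv4-55 and Igkv4-68, 1426200_at, had a log2 difference of -0.30. Of those with the same symbols as 1427577_x_at, the brighter 1451965_at differed by 0.19 and 1427576_at by 0.44. The median log2 difference of the 31 was 0.19. Of the 20 above the controls on all 6 arrays, 15 had their lowest B.D(Chr5) value on replicate 3.

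Of 17 measured plasma cell receptors and differentiation genes, 0 passed limma after adjustment, against 0.158% of all tested genes, and 2 had an unadjusted p under 0.05, against 5.19%. The 2 were Tnfrsf17, which encodes the plasma cell survival receptor BCMA, and Cd27, a TNF receptor of memory lymphocytes. Tnfrsf17 read 90.4, 60.3 and 71.8 in C57B/L6 and 114, 153 and 103 in B.D(Chr5), with no overlap. The limma log2 difference was 0.62 (SE 0.23, adjusted p = 0.925). Its highest value was on replicate 2, as for the brightest probe set of each immunoglobulin gene. Over the 17 genes, replicate 2 was instead the lowest B.D(Chr5) array for 12 and the highest for 3. Replicate 3 was the highest for 9. Cd27 read 766, 966 and 1024 against 801, 652 and 677, a log2 difference of -0.36 (limma adjusted p = 0.941). The related receptor gene Tnfrsf13b, which encodes TACI, overlapped with 940.0, 1362 and 1353 against 1413, 1115 and 1489. Pou2af1, a coactivator of immunoglobulin promoters, read 603, 559 and 688 against 727, 650.3 and 1764, the last on B.D(Chr5) replicate 3, and its log2 difference of 0.61 was 0.16 without that array.

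The folding machinery of the endoplasmic reticulum, much of it controlled by XBP1, was described by its chaperones and oxidoreductases. Of 21 such genes, 20 had a positive log2 difference, with a median of 0.20 against -0.01 over the brightest probe sets of all 10739 tested genes. None passed limma after adjustment, and 7 had an unadjusted p under 0.05, all higher in B.D(Chr5), where 5.19% of all tested genes had such a p. Hspa5, which encodes the chaperone BiP that holds unassembled heavy chains, read 14014, 13064 and 10994 in C57B/L6 and 17722, 15223 and 15445 in B.D(Chr5). Its groups did not overlap, with a log2 difference of 0.35 (SE 0.10, limma adjusted p = 0.639). Its other 2 probe sets overlapped and differed by 0.29 and 0.02.

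Creld2, a gene induced by endoplasmic reticulum stress, read 1400.1, 1401 and 1286 in C57B/L6 and 2080.3, 1546 and 1769 in B.D(Chr5), a log2 difference of 0.39 (limma adjusted p = 0.699). Sdf2l1, which works with BiP, read 2127, 2339 and 2188 against 3677, 2317 and 3249.7, and passed limma without B.D(Chr5) replicate 2 (log2 difference 0.64, adjusted p = 0.0369). It was the 1 gene of all these lists to pass with an array left out. Hsp90b1, the chaperone GRP94, differed by 0.04 on its brightest probe set, with 6528, 7332 and 7666 against 7160.2, 6591 and 8467, and by -0.06 without B.D(Chr5) replicate 3. Its other probe set, 1438040_a_at, read 3722, 4246 and 2749 against 5449.9, 3719 and 4317. There the groups overlapped too, and the log2 difference was 0.34 (SE 0.17). Within B.D(Chr5), replicate 2 was the lowest array for 17 of the 21 genes and replicate 1 the highest for 13, which is also the order on the brightest Xbp1 probe set. The low place of replicate 2 was not particular to these genes. It was the lowest for 12 of 17 plasma cell genes, 10 of 15 B cell identity genes and 6 of 9 early B cell genes. In the lists described next, it was the lowest for 9 of 13 degradation, 6 of 19 translocation and 4 of 9 unfolded protein response genes.

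Genes of degradation from the endoplasmic reticulum gave a similar picture. Of 13 genes, 10 were positive, with a median of 0.17, 0 passed limma after adjustment and 3 had an unadjusted p under 0.05, Syvn1, Herpud1 and Sel1l. Syvn1, the ubiquitin ligase of this pathway, read 857, 852 and 839 in C57B/L6 and 1131, 989 and 1066 in B.D(Chr5), without overlap (log2 difference 0.31, limma adjusted p = 0.724). Herpud1 read 2138, 2360.0 and 2099 against 3212, 2342 and 2845. Derl3, a member that plasma cells express strongly, lay between 162 and 193 on all 6 arrays.

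Genes of translocation into the endoplasmic reticulum and of signal peptide cleavage differed least. The median of 19 genes was 0.08, and their log2 differences ran from -0.06 to 0.16. None passed limma after adjustment, and 1, the signal peptidase gene Spcs2, had an unadjusted p under 0.05 (log2 difference 0.16), followed by Spcs3 of the same enzyme at 0.13. Of the 9 sensors and factors of the unfolded protein response, 0 passed after adjustment, with a median of 0.08. Ern1, whose product IRE1 splices Xbp1 mRNA, read 1412, 1528 and 1796 against 1645, 1476 and 1889. The 2 with an unadjusted p under 0.05 went opposite ways, the kinase gene Eif2ak3 at 0.26 and the phosphatase subunit gene Ppp1r15a at -0.45.

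**Figure D5:**
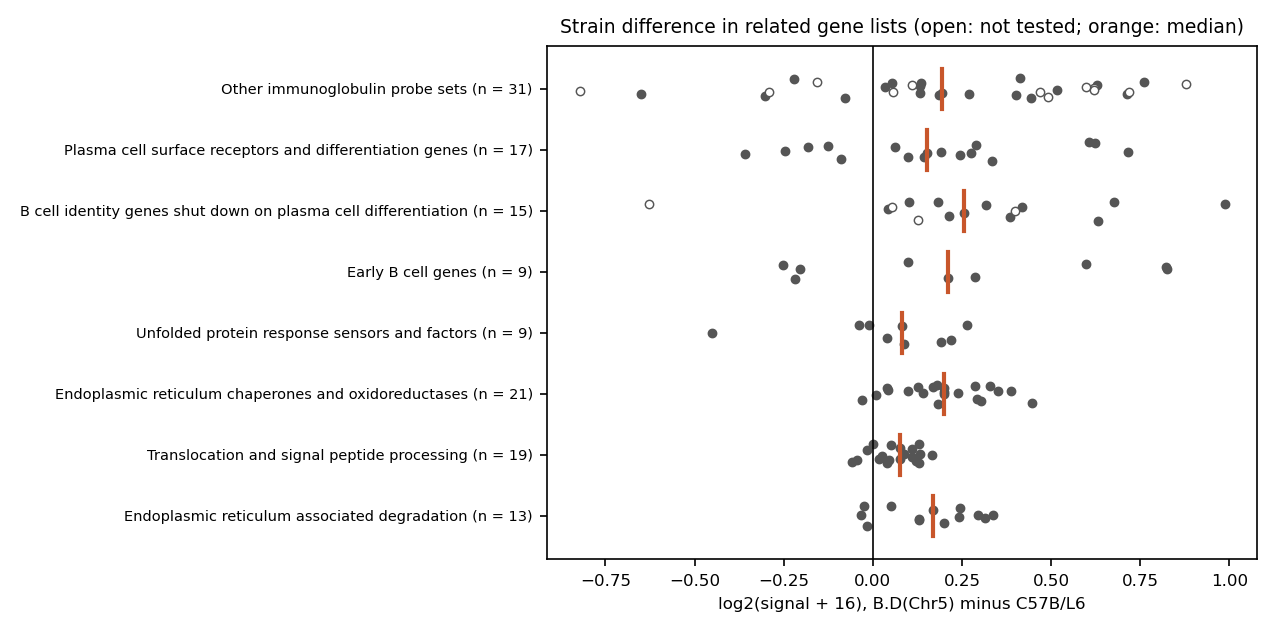
Strain difference on the log2(signal + 16) scale for the 31 other immunoglobulin probe sets and for 7 gene lists, each gene by its brightest probe set; open circles were below the signal filter and orange bars mark medians. The medians lie between 0.08 and 0.25, and none of the tested points passed the adjusted limma threshold.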

How the data were processed

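Intensities were deposited on a linear scale. MAS5 made them, per the submitters' processing notes. Its version and settings were not given in the sources used. On every array, the mean without the top and bottom 2% of values was 500.003. After 64 controls were left out, log2(signal + 16) was fitted by strain for the upper 50% of probe sets in limma 3.58.1 (R 4.3.3; lmFit, eBayes with trend, two-sided, Benjamini-Hochberg over 22518 probe sets, threshold 0.05). The fit was tested on simulated data. Symbols come from the platform annotation, updated by Entrez identifier (34741 of 34945 probe sets with 1 symbol matched) to RefSeq GRCm38.p6, which also gave chromosomes. Untested probe sets have no interval.

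Genes and lists were chosen with earlier results of these data known. Lists used the brightest single-symbol probe set of each gene, without set tests. Counts of the highest or lowest array, for lists and members alike, have no share over all probe sets beside them. Named were every probe set of the 10 genes, the 3 other immunoglobulin probe sets and 2 genes of each list with the smallest p, and always Hspa5, Hsp90b1, Derl3, Tnfrsf17, Tnfrsf13b, Pax5, Ern1 and Pou2af1. Rag1, Ebf1, Dntt, Il7r, Erg, Cr2, Irf8, Sdf2l1 and Sel1l and the kappa constant probe sets were named after their values were seen. So were the kappa variable probe sets 1426200_at, 1427576_at and 1451965_at. Some genes of the lists are not reported here. Alternatives covered pseudocounts of 1 and 64, the filter, normalization, eBayes with no trend, a replicate block, _x_at probe sets, a threshold of 0.1 and each array left out. P-values measure the spread between these 3 arrays per strain, whose number limits the precision. Same-numbered arrays were checked for shared deviations: r across tested probe sets was -0.11, -0.20 and 0.20, without a common sign. Arrays of unlike number reached 0.30 (C57B/L6 replicate 1 with B.D(Chr5) replicate 2) and 0.26 (C57B/L6 replicate 2 with B.D(Chr5) replicate 1). What these arrays shared was not tested.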

Additional observations from a re-analysis of the deposited data

How the results depend on the processing

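All 38 strain differences were recomputed under up to 15 settings. The called Iglv1 and Igkv9-120 probe sets kept their sign in each. Of these 4, 1452536_s_at of Igkv9-120 was called in 6 of 15 settings, 1460423_x_at in 11 of 14, 1424931_s_at in 14 of 15 and 1430523_s_at in 15 of 15. On all 6 arrays, 1429381_x_at of Igha was also called with the upper 75% of probe sets, quantile normalization or median centring, and 1425763_x_at with quantile normalization; nothing is read from calls of genes chosen for this contrast. Without trend in eBayes, 1 of the 38 was called, and 25 of all tested probe sets against 41. With the replicate number as a block, 3 of the 38 and 27 of all probe sets were called, and centring each array on its median gave 67 in all. Leaving out each array in turn gave 2 to 7 calls among the 38, 21 to 73 over all probe sets and 0 to 1 among the list genes. It moved the median log2 difference of the immunoglobulin probe sets between 0.17 and 0.66 and that of the secretory ones between 0.25 and 0.38. The immunoglobulin median was 0.46 without _x_at probe sets, and fewer probe sets entered it. The cause of the other moves was not tested. Medians over probe sets above the controls and the count without shared probe sets were added after the data were seen; the latter was 3. List medians without B.D(Chr5) replicate 3 were added then too. They moved most for the B lineage lists and for the 5 measured markers of mature blood cells, Ms4a1 among them. The median of those 5 markers went from 0.37 to 0.11. Dim probe sets near the control level limit what can be said of 1426196_at, 1427750_at, 1427869_at and 1451949_at.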
